A study of Homo sapiens with 2 samples.

Results

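The genes described here are the 5 subunits of the LRRC8 anion channel (LRRC8A to LRRC8E) and 5 genes that move copper across or through the cell (SLC31A1, SLC31A2, ATP7A, ATP7B and ATOX1). They were found by symbol in the deposited expression table: 10 of its 12494 gene names, held by 11 of its 19217 loci, since SLC31A1 had a pair of loci. The study sequenced polyadenylated RNA from SBC5, an established line from a small cell lung cancer, in 2 forms with 1 library each: parental cells, and a derivative called SBC5 Cpr that had been taken through rising cisplatin concentrations of 1, 2, 4 and 20 µg/ml. Both were grown in the same serum-supplemented medium. The sources used here do not say whether the resistant line is 1 clone or a pool, or whether cisplatin was present at harvest. With 1 library per group there is no replicate error and no test, so every difference below describes these 2 libraries. In RNA from bulk cultures, fewer cells with a transcript and less of it per cell cannot be told apart.

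LRRC8 proteins form hexameric channels in the plasma membrane that open when a cell swells and let out chloride and organic osmolytes. LRRC8A is the subunit that every working channel needs, and its partners LRRC8B to LRRC8E set which solutes pass. Channels that hold LRRC8D pass larger and uncharged solutes, among them cisplatin, and loss of LRRC8A or LRRC8D is known to lower platinum uptake. Copper enters cells through SLC31A1 (also called CTR1), which has been tied to platinum uptake, is handed on by the small chaperone ATOX1, and is pumped into the secretory pathway or out of the cell by the ATPases ATP7A and ATP7B, which have been tied to platinum export.

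A pattern that the chaperone and the pumps share is visible in their reading frames. ATOX1 and the pumps bind copper with short loops that hold a pair of cysteines behind a methionine, and that of ATOX1 is known to bind platinum as well. A search of the GENCODE reading frames for a methionine codon followed by cysteine codons (TGC or TGT) in the third and the sixth place found 1 loop in the 68 codons of ATOX1, 6 in the 1500 codons of ATP7A and 6 in the 1465 codons of ATP7B. They are printed here, numbered along each frame, because they match the copper-binding pattern that chaperone and pumps share. Which of them exchange the metal was not tested. Cysteine codons are in capitals.
ATOX1 loop 1: atgaccTGTggaggcTGT
ATP7A loop 1: atgactTGCaattccTGT
ATP7A loop 2: atgaccTGCcattcaTGT
ATP7A loop 3: atgcatTGTaaatcaTGT
ATP7A loop 4: atgactTGTaattccTGT
ATP7A loop 5: atgactTGCgcttccTGT
ATP7A loop 6: atgacgTGTgcctccTGC
ATP7B loop 1: atgactTGCcagtcaTGT
ATP7B loop 2: atgaccTGCcagtccTGT
ATP7B loop 3: atgcatTGTaagtctTGC
ATP7B loop 4: atgaccTGTgcatccTGT
ATP7B loop 5: atgaccTGTgcatccTGT
ATP7B loop 6: atgaccTGCgcgtccTGT
Loops 4 and 5 of ATP7B were written with the same bases. The frames of ATP7A and ATP7B were 65.4% identical over 4251 aligned bases, and their longest shared run was 20 bases.

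None of the 10 genes passed the fixed limit of 2-fold, which was passed in either direction by 5.98% of the 12405 genes compared. The log2 ratio used throughout sets the resistant over the parental value after a pseudocount of 1 was added to each FPKM, a fragment count corrected for transcript length and sequencing depth. The genes compared were those with at least 1 FPKM in either library, and all 10 genes were among them. At a lower limit of 1.5-fold, passed by 14.2% of genes (7.59% higher and 6.59% lower), the count was also 0 of 10, although LRRC8C and LRRC8D lay just past 1.5-fold on FPKM without a pseudocount. With shares of that size in the whole table, a count of 0 among 10 is not particular to these genes. Their log2 ratios ran from -0.48 for LRRC8D to 0.55 for LRRC8C, with 5 above 0 and 5 below, and the median of -0.04 was that of all genes compared (-0.04).

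**Figure D1:**
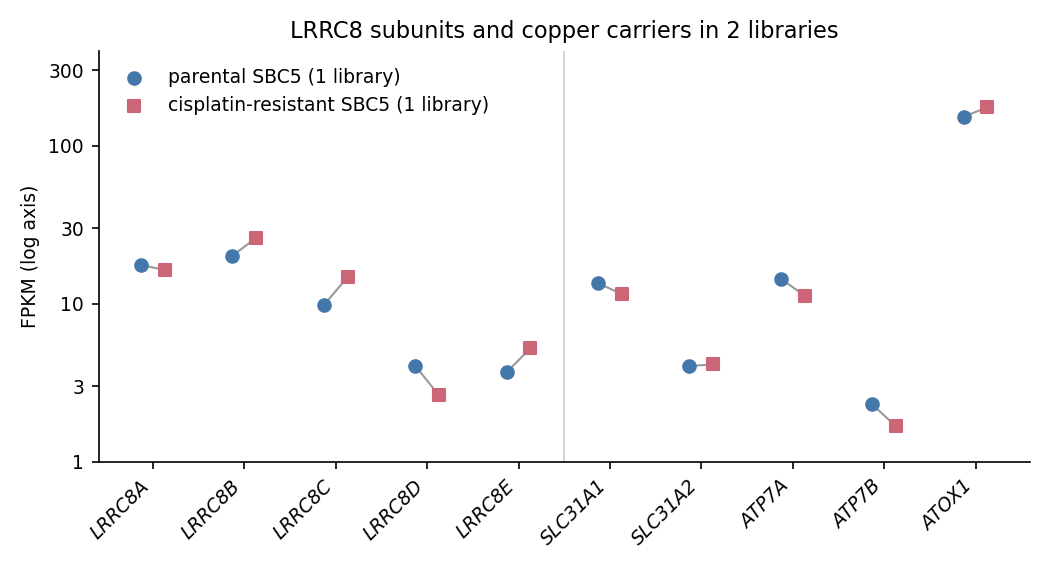
FPKM on a log axis (vertical) for each of the 10 genes (horizontal) in the parental library (circles) and the cisplatin-resistant library (squares), with a line joining the pair; each point is 1 library, so there are no error bars. ATOX1 lies above all others at 153 and 175 FPKM, LRRC8C goes from 9.81 to 14.8 FPKM and LRRC8D from 4.06 to 2.63 FPKM.

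Among the channel subunits, LRRC8B, LRRC8C and LRRC8E were higher in the resistant library and LRRC8A and LRRC8D lower. LRRC8A, the subunit every channel needs, stood at 17.6 FPKM in the parental library and 16.4 FPKM in the resistant one, a log2 ratio of -0.10. LRRC8D, the subunit tied to cisplatin, stood at 4.06 FPKM in parental cells and at 2.63 FPKM in the resistant line, 1.54-fold lower without a pseudocount (log2 ratio -0.48). It had the lowest ratio of the 10 genes, and 8.73% of all genes compared had a lower one.

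LRRC8C, a partner that with LRRC8E favours the passage of small charged solutes, was measured at 9.81 FPKM in the parental and at 14.8 FPKM in the resistant library, 1.51-fold higher (log2 ratio 0.55). This was the highest ratio of the 10 genes, and 8.29% of all genes compared had a higher one. LRRC8E had 3.69 and 5.23 FPKM, 1.42-fold higher (0.41). LRRC8B, whose part in the channel is the least well understood, had 20.1 and 26.2 FPKM, 1.30-fold higher (0.36), and was the most abundant subunit in both libraries. FPKM are scaled to length, so these levels were set side by side. The gene models that gave the lengths are not named, so orders, shares and ratios between genes rest on unknown lengths.

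Summed over the subunits, the level was 55.3 FPKM in the parental library and 65.2 FPKM in the resistant one, a log2 change of 0.24. Giving both libraries the same total made that value 0.15. Shares within a library do not depend on such scaling. LRRC8D made up 7.34% of the LRRC8 sum in parental and 4.03% in resistant cells, a difference of -3.31 percentage points. LRRC8A also had a smaller share, 31.9% and 25.1%. LRRC8B had 36.4% and 40.2%, LRRC8C 17.7% and 22.7%, and LRRC8E 6.67% and 8.02%. Transcript shares do not give the make-up of channel proteins, which was not measured.

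**Figure D2:**
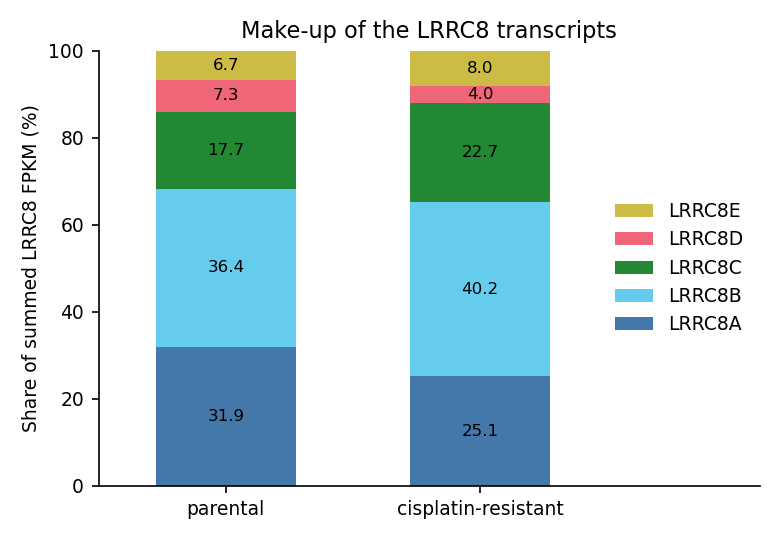
Share of the summed LRRC8 FPKM in percent (vertical) taken by each subunit (colours) in the parental and the cisplatin-resistant library (bars, 1 library each). The LRRC8D segment is 7.34% in parental and 4.03% in resistant cells, while LRRC8B and LRRC8C take larger segments in resistant cells.

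The 3 largest of the 10 differences in subunit ratio all involved LRRC8D. Per LRRC8A transcript, LRRC8D had 0.230 in parental and 0.161 in resistant cells, a log2 change of -0.52. Per LRRC8C transcript it had 0.414 and 0.178 (-1.22), per LRRC8E transcript 1.10 and 0.503 (-1.13). LRRC8B transcripts per LRRC8D transcript came to 4.95 and 9.96 (1.01). LRRC8D thus stood above LRRC8E in the parental library and below it in the resistant one. Of the 10 subunit pairs, 3 moved by 2-fold or more on plain FPKM, each with LRRC8D, and the 6 pairs without LRRC8D moved by 0.09 to 0.70 on the log2 scale. These pairs were singled out after their values were seen. On plain FPKM, 18.1% of all gene pairs moved as far, so shifts of this size are common in the table. With the pseudocount of 1, LRRC8C and LRRC8D alone lay 1 or more apart (by 1.03), as did 12.7% of all gene pairs.

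Values near 3 to 5 FPKM vary widely in this table. With all genes divided into 20 bins by their level, the bin of LRRC8D held 620 genes, among which the middle 95% of log2 ratios ran from -1.55 to 1.89, and 33.4% lay at least as far from their median as LRRC8D did. For LRRC8E that share was 35.0%, for LRRC8C 13.2% and for LRRC8B 15.8%. Each of the 10 genes lay inside the range of its level.

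**Figure D3:**
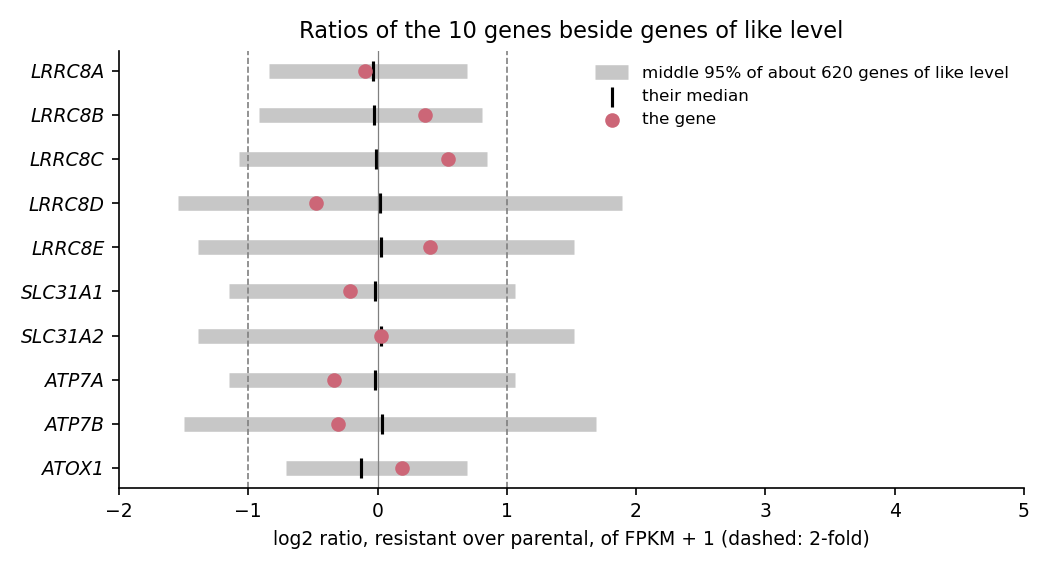
Log2 ratio of FPKM + 1, resistant over parental (horizontal), of each gene (points) on the middle 95% of the genes in the same of 20 level bins (grey bars, about 620 genes) with their median (ticks); dashed lines mark 2-fold. All 10 points lie inside both the dashed lines and their grey bars, with LRRC8D at -0.48 and LRRC8C at 0.55.

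LRRC8B, LRRC8C and LRRC8D lie next to each other on the plus strand of chromosome 1 (hg38), from 89524836 to 89597864, from 89633072 to 89769903 and from 89821014 to 89936611. This made the opposite ratios of LRRC8C and LRRC8D a difference between direct neighbours. Of the 10 other compared genes closest to the cluster, 5 on each side, 8 lay below 0, with a range of -0.78 to 0.25 and a median of -0.13. Their starts lay from -2820 to 1976 kb from that of LRRC8B. Here and below, neighbours are the closest compared genes with a position, so genes outside that set are passed over. LRRC8B and LRRC8C lay above all 10, and LRRC8D lay below 8 of them. LMO4, a LIM-domain cofactor of transcription, had 12.4 and 6.80 FPKM (-0.78), and ZNF326, an RNA-binding zinc finger protein, had 49.8 and 32.5 FPKM (-0.60).

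**Figure D4:**
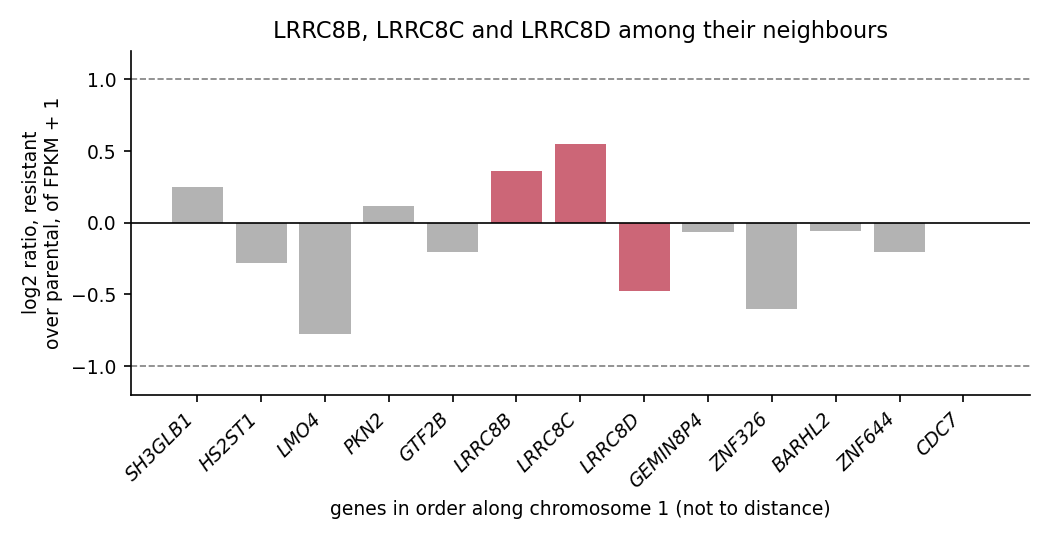
Log2 ratio of FPKM + 1, resistant over parental (vertical), of LRRC8B, LRRC8C and LRRC8D (red bars) and the 5 closest compared genes on each side (grey bars) in their order on chromosome 1; dashed lines mark 2-fold, and each bar compares 1 library with 1 library. LRRC8B (0.36) and LRRC8C (0.55) lie above all 10 neighbours and LRRC8D (-0.48) below 8 of them.

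The upstream bases of these neighbours differ in their letters. The 250 bases before the RefSeq start of LRRC8C (GRCh38.p14, chr1:89632870-89633119, plus strand) and of LRRC8D (chr1:89820782-89821031, plus strand) are printed because this pair had the most opposite ratios, and those of SLC31A1 (chr9:113221294-113221543, plus strand) because SP1, which binds the GC box, is known to drive this gene. Capitals mark GGGCGG, the GC box, on either strand.
LRRC8C: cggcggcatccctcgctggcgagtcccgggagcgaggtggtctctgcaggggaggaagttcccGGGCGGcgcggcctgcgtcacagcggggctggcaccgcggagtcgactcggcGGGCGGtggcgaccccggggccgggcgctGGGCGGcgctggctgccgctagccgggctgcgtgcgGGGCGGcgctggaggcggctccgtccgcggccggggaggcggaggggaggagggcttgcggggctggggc
LRRC8D: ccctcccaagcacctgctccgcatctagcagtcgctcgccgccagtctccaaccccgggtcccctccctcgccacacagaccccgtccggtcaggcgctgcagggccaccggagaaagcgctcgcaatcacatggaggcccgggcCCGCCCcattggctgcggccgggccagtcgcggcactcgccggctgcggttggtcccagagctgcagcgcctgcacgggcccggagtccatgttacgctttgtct
SLC31A1: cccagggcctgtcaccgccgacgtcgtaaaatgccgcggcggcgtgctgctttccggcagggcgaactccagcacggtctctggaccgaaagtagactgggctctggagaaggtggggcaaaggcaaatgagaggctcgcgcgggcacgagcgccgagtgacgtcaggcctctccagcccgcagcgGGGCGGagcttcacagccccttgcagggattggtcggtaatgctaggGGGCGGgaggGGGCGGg
The LRRC8C window held 4 matches, all on the plus strand, the LRRC8D window 1, on the minus strand, and the SLC31A1 window 3. Of the 10 genes, 9 had a RefSeq promoter window, and 8 of the 9 held the GC box, against 42.3% of 27305 promoters. The windows were also rich in G and C, at 64.0% to 80.8% against a median of 58.0% over all promoters. The core of the metal response element, searched as TGCACNC and TGCGCNC on both strands, was found in 1 of the 9 windows, that of ATOX1, where the matches on the strands overlap, and in 24.7% of all promoters. Such matches describe letters and show no binding. SP1 itself had 22.1 and 23.6 FPKM (log2 ratio 0.09), and MTF1, the factor of the metal response element, had 6.97 and 8.67 FPKM (0.28).

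The other channel genes lie on chromosome 9 (LRRC8A, 128882112 to 128918039, plus strand) and chromosome 19 (LRRC8E, 7888505 to 7902021, plus strand). LRRC8A at -0.10 lay above 9 of its 10 neighbours, whose median was -0.30, and LRRC8E at 0.41 lay above 8 of its 10, whose median was 0.11. The reading frames of the 5 subunits were 59.4% to 66.7% identical in their bases, and no pair shared a run of over 32 bases. No window of 50 bases was shared between any 2 of the 10 genes. LRRC8C and LRRC8D shared 3.86% and 7.23% of such windows with AC093423.3, a gene model that overlaps both. How fragments from these stretches were assigned was not tested.

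Among the copper genes, the importer and both pumps were lower in the resistant library and the chaperone was higher, all within 1.5-fold on the log2 ratio. SLC31A1, the high-affinity importer, lies on chromosome 9 from 113221562 to 113264492 on the plus strand. Its level was 13.5 FPKM in the parental and 11.5 FPKM in the resistant library (log2 ratio -0.21). Its further locus, in a part of the table inferred to hold loci without a strand, had 0.907 and 1.15 FPKM (0.17). The ratio of that locus equalled 14 to 11 times the relative worth of 1 read in the libraries (0.996) to within 2e-05 on the natural log scale. None of the other 10 loci had a ratio of whole numbers up to 20 by that tolerance. Such ratios were found at 53.0% of the 7591 loci with levels above 0 and under 5 FPKM in both libraries. Of the other 10 loci, only those of LRRC8D, SLC31A2 and ATP7B lay in that range, so the share is no measure for the rest. The number of reads behind that locus stays unknown.

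SLC31A2, a relative of SLC31A1 found on internal membranes, lies just before it on the same chromosome (113150942 to 113164137, plus strand). It had 4.05 and 4.13 FPKM (log2 ratio 0.02), and its sign turned (-0.04) once the libraries were given equal sums. All genes compared had a median of -0.12 under that scaling. The median of the 10 neighbours of SLC31A1 was -0.15, and 9 of the 10 lay below 0. SLC31A1 lay above 4 of its neighbours and below 6. Within a library, SLC31A1 stood 3.34 times above SLC31A2 in parental and 2.79 times above it in resistant cells.

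ATP7A, the pump active in most tissues, lies on the plus strand of chromosome X (77910656 to 78050395). Parental cells had 14.45 FPKM and resistant cells 11.3 FPKM, or 0.779 of the parental level (log2 ratio -0.33). ATP7B, the pump known best from liver, lies on the minus strand of chromosome 13 (51930436 to 52012125). It had 2.31 and 1.68 FPKM, or 0.726 of the parental level (-0.31), the lowest level of the 10 genes in both libraries. ATP7A stood 6.26 times above ATP7B in parental and 6.71 times above it in resistant cells. Neither pump showed a higher level in the resistant library.

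ATOX1, the chaperone, lies on the minus strand of chromosome 5 (151742316 to 151772532) and was the most abundant of the 10 genes. Its level was 153 FPKM in the parental and 175 FPKM in the resistant library, 1.14-fold higher (log2 ratio 0.19). Of the genes in its level bin, 16.7% lay at least as far from their median. Per SLC31A1 transcript, ATOX1 had 11.3 in parental and 15.2 in resistant cells, a log2 change of 0.42, and per ATP7A transcript it had 10.6 and 15.6 (0.55). ATOX1 lay above 9 of its 10 neighbours on the chromosome, whose starts lay from -712 to 2704 kb from its own.

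ATP7A and ATP7B together had 1.24 times the FPKM of SLC31A1 in parental and 1.12 times in resistant cells, a log2 change of -0.14. Of the 71 neighbours of all 10 genes, 1 passed 2-fold: NEK5, a kinase gene beside ATP7B, with 21.5 and 8.57 FPKM (-1.23). The annotation places CDC26 (46.1 and 34.9 FPKM) across part of SLC31A1, FKBP15 (12.4 and 10.4 FPKM) across part of SLC31A2 and G3BP1 (138 and 122 FPKM) across part of ATOX1, each on the opposite strand. PGK1 (341 and 276 FPKM) overlaps ATP7A on the same strand. The sources used here do not say whether the counting used strand, so fragments of the partners on the opposite strand cannot be told apart either.

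Around these genes, 8 lists of 105 genes on copper, platinum and cell volume were examined, and 69 genes were compared. Past 2-fold, 2 of the 69 were higher and 2 lower, together 5.80%, against 3.28% of all genes higher and 2.70% lower. Among the higher, SLC22A4 reached 1 FPKM only in the resistant library, so the filter fixed its direction. The median of the 69 was -0.07, beside -0.04 for all genes. Of the 69, 27 lay above 0 and 42 below. Over all 12405 genes compared, 5502 lay above 0 and 6903 below, so the counts of signs given for lists and neighbours start from a table that itself lies more often below 0.

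Genes of copper delivery to mitochondria and to the superoxide dismutase SOD1 were all within 2-fold: 10 of 11 were compared, with a median of -0.05, 3 above 0 and 7 below. CMC1, a small mitochondrial factor of cytochrome oxidase, had 42.6 and 26.9 FPKM (-0.64), and COA6, an assembly factor of that enzyme, had 66.4 and 52.0 FPKM (-0.35). SLC25A3, which carries copper and phosphate into the matrix, had 341 and 284 FPKM (-0.26). COX11, which helps to insert copper into the oxidase, had 52.2 and 47.1 FPKM (-0.14).

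Of 15 genes of copper uptake, reduction, trafficking and regulation, 11 were compared and none passed 2-fold, with a median of 0.09, 8 above 0 and 3 below. STEAP3, a metalloreductase that reduces iron and copper for uptake, had 12.4 and 19.2 FPKM (0.59). COMMD1, which takes part in the trafficking of ATP7A and ATP7B, had 48.5 and 64.0 FPKM (0.39). CUTC, a copper-binding protein, had 33.6 and 24.8 FPKM (-0.43). The fourth gene named by size, MTF1, is given above.

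Of 15 enzymes that receive copper in the secretory pathway, 3 were compared, all below 0. The others were not in the table or stayed under 1 FPKM in both libraries. MOXD1, a monooxygenase-like protein related to dopamine beta-hydroxylase, had 21.9 and 10.1 FPKM and passed 2-fold (-1.04, and -0.83 with a pseudocount of 5). PAM, which amidates peptide hormones, had 24.8 and 18.9 FPKM (-0.38), and the lysyl oxidase relative LOXL3 had 11.5 and 9.60 FPKM (-0.24). All 8 genes of copper-dependent death, which act on lipoylated enzymes of the mitochondrion, were compared and lay within 2-fold (median -0.12). The pyruvate dehydrogenase subunit PDHA1 had 35.5 and 30.6 FPKM (-0.21), the lipoate synthase LIAS 8.38 and 7.20 FPKM (-0.19) and DLAT 37.0 and 32.9 FPKM (-0.17).

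Of 17 other carriers tied to platinum, 10 were compared, with a median of 0.14, 6 above 0 and 4 below. SLC22A4 and SLC47A2 reached 1 FPKM only in the resistant library, so the filter fixed their place above 0. SLC22A4, a carrier of ergothioneine and organic cations, was listed at 0 in the parental library and had 2.75 FPKM in the resistant one. No fold can be given against a level of 0, and the size of its log2 ratio follows the pseudocount: 4.83 with 0.1, 1.91 with 1 and 0.63 with 5. Its neighbour in the same family, the carnitine carrier SLC22A5, had 10.3 and 7.08 FPKM (-0.48). ABCC2, which exports drug conjugates, had 4.74 and 10.3 FPKM (0.97). The proton-coupled cation exporter SLC47A2 had 0.474 and 1.26 FPKM (0.62), from a strandless locus.

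Genes of ion transport that set cell volume, the setting in which LRRC8 channels open, had a median of -0.14: of 24 listed, 16 were compared, with 2 above 0 and 14 below. WNK3, a chloride-sensing kinase, had 14.9 and 6.44 FPKM and passed 2-fold (-1.09, and -0.80 with a pseudocount of 5). Its relative WNK2 had 8.95 and 7.26 FPKM (-0.27), and STK39, the kinase that WNK kinases activate, had 35.6 and 29.5 FPKM (-0.26). SLC12A4, a potassium and chloride exporter, had 17.6 and 25.8 FPKM (0.53).

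Of 8 genes of organic osmolytes, which leave swollen cells through LRRC8 channels, 6 were compared, with a median of -0.13. CSAD, an enzyme of taurine synthesis, had 7.26 and 26.5 FPKM (1.74) at its strandless locus, but 5.44 and 7.08 FPKM (0.33) in its strand-assigned locus, so its place past 2-fold rests on the former. SLC38A2, an amino acid carrier induced by hypertonicity, had 165 and 94.9 FPKM (-0.80). The myo-inositol carrier SLC5A3 shared a locus with MRPS6, which had 243 and 187 FPKM (-0.37), and NFAT5, the factor of the hypertonic response, had 44.3 and 38.8 FPKM (-0.19). The dinucleotide cGAMP, a signal of DNA in the cytosol, also passes LRRC8 channels. Of 7 genes that make, move or degrade it, 5 were compared and lay between -0.03 and 0.22, with its synthase MB21D1 at 8.998 and 10.1 FPKM (0.15) and the folate carrier SLC46A1 at 7.88 and 9.35 FPKM (0.22). The cGAMP importer SLC19A1 had 23.5 and 23.0 FPKM (-0.03), and ENPP1, which degrades cGAMP, had 9.96 and 9.99 FPKM (0.00). The signs of SLC19A1 and ENPP1 turned under another scaling.

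**Figure D5:**
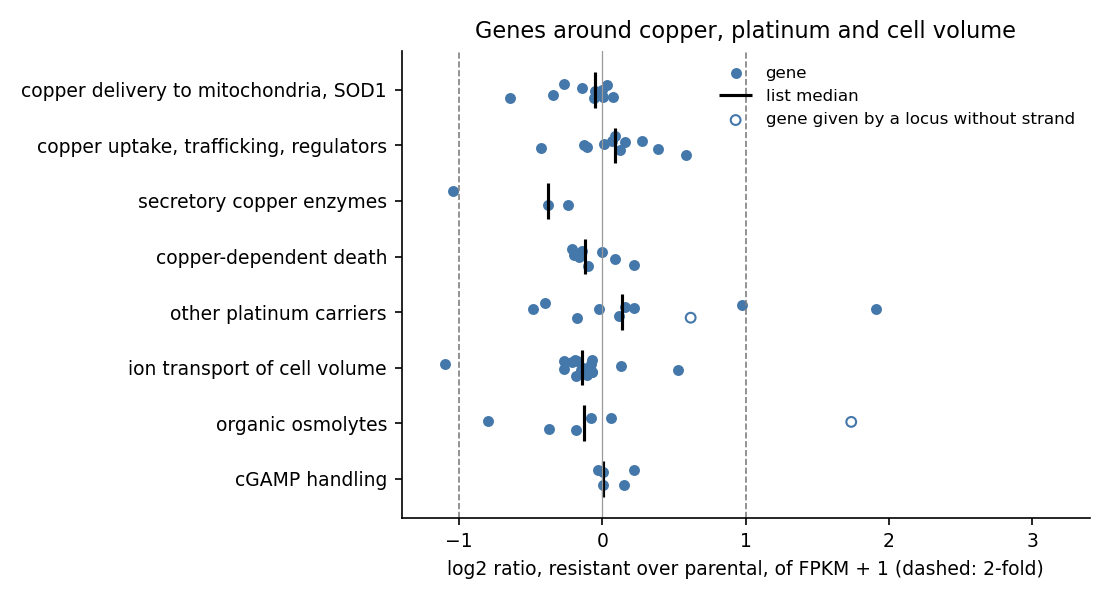
Log2 ratio of FPKM + 1, resistant over parental (horizontal), of the compared genes of 8 lists (rows; points, open where the gene is given by a locus without a strand), with each list's median (black bars) and 2-fold (dashed lines). Of 69 genes, 4 lie at or past the dashed lines: SLC22A4, CSAD, MOXD1 and WNK3.

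The labelled cell type was checked against marker genes. Of 9 neuroendocrine markers of small cell lung cancer, 5 were in the table, with summed levels of 138 FPKM (parental) and 50.4 FPKM (resistant), but the lower sum came from the granule protein SCG2 alone (109 and 20.1 FPKM). The synaptic vesicle protein SYP (8.56 and 8.62 FPKM, log2 ratio 0.01) and the Notch ligand DLL3 (19.3 and 18.9 FPKM, -0.03) were close to level, and CHGB (0.36) and NCAM1 (0.53) were higher, both at under 2 FPKM. CHGA, INSM1 and SCG3 were not in the table. Of the non-neuroendocrine genes, the intermediate filament gene VIM was lower (389 and 242 FPKM, -0.68), while the transcriptional repressor REST (31.8 and 39.1 FPKM, 0.29) and the coactivator YAP1 (76.6 and 84.7 FPKM, 0.14) were higher, and their sum was 498 and 366 FPKM. Of 4 epithelial markers, 2 were in the table: KRT8 had 2.09 and 2.36 FPKM (0.12), and the cadherin gene CDH1 had 0.536 and 4.81 FPKM (1.92). Of 8 markers of blood, endothelial and stromal cells, 2 were in the table: HBB had 2.69 and 0.472 FPKM (-1.32) and COL1A1 had 2.34 and 3.85 FPKM (0.54), with a sum of 5.03 and 4.32 FPKM. The part of these marker levels in the ratios above was not tested. Summed FPKM were 1019555 in parental and 1081047 in resistant cells, and the number of reads behind a value is unknown.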

How the data were processed

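Expression was compared between 1 library of parental and 1 of cisplatin-resistant SBC5 cells. The authors deposited FPKM per locus, per the file headers. Per the labels' protocols, libraries were made from polyadenylated RNA with a kit that preserves strand. Per the submitters' processing notes, TopHat2 (no version given) and hg38 were used. The sources used here do not name the program or gene models that gave the FPKM. Each column was tied to its sample by the labels' descriptions, and 0 were left unmatched.

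Of 19217 loci, 2942 without a usable name were left out. The locus of highest mean FPKM stood for a name. The 12405 genes that reached 1 FPKM in one library or both were compared as log2 ratios with a pseudocount of 1, which understates changes of low genes. No test was possible, and a limit of 2-fold replaced one. Strands were inferred from the order of loci, with the bounds between plus, minus and strandless parts set where annotated strands matched best. Of 11773 loci with an annotated strand, 98.7% lay on it, which is the fit itself and no separate check. Genes of like level are those in the same of 20 level bins. Positions came from GENCODE release 29, whose build matches hg38 (11505 compared genes), promoters from RefSeq (GRCh38.p14). SLC31A2 had no promoter entry. Transcripts and reading frames were those of GENCODE's principal transcript. A test on simulated data covered the log2 ratios, the counts past 2-fold and the library scalings. Changes were planted without noise, so it checks the arithmetic only.

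The 10 genes and the lists were chosen with earlier results of these data known. Genes named are all 10, up to 4 of each list by size of log2 ratio, and neighbours past 2-fold; 1 list gene that the rule names is not reported here. LMO4, ZNF326 and SP1, the overlapping genes and the pairs with LRRC8D were chosen after their values were seen. Alternatives were other pseudocounts (0.1, 5), filters (none, 5 FPKM), scalings, ways of joining loci and a 1.5-fold limit. Python 3.11.15, pandas 2.3.3, NumPy 2.4.6 and matplotlib 3.10.9 were used.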

Additional observations from a re-analysis of the deposited data

How the results depend on the processing

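The count of 0 of the 10 genes past 2-fold was the same under all 9 alternatives, with 7 genes left to compare under a filter of 5 FPKM. Over the settings, log2 ratios ran from -0.61 to -0.25 for LRRC8D, from 0.42 to 0.59 for LRRC8C, from -0.44 to -0.13 for ATP7B and from 0.11 to 0.23 for ATOX1, and SLC31A2 alone of the 10 changed sign. The log2 change of the LRRC8 sum was 0.15 with sums scaled to be equal, 0.28 after division by the median ratio and 0.24 otherwise. The LRRC8 sum, the LRRC8D share and its ratio to LRRC8A could not change with loci summed or strand-assigned. The 5 LRRC8 genes had 5 loci, all of them strand-assigned. The count of list genes past 2-fold was 4, also with no filter and with equal sums. It was 6 with a pseudocount of 0.1 and 1 with a pseudocount of 5, 5 under median-ratio scaling and with loci summed, 3 with a filter of 5 FPKM and with strand-assigned loci, and 9 at 1.5-fold. The count of neighbours was 1, but 0 with a pseudocount of 5, 7 at 1.5-fold and 2 with a filter of 5 FPKM, which by its construction also changes which compared genes are the closest. With a pseudocount of 0.1, ABCC2 (1.10) and SLC47A2 (1.24) lay past 2-fold, as did ABCC2 (1.01) under median-ratio scaling. No paired analysis was possible because each group had 1 library. Without read counts, no interval could be given, and low levels such as those of LRRC8D and ATP7B are the least certain.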
